A study of Sus scrofa with 35 samples.

Results

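Respiratory complexes III and IV and ATP synthase carry out the last steps of mitochondrial energy production. Complex III passes electrons from ubiquinol to cytochrome c, complex IV (cytochrome c oxidase) hands them to oxygen, and ATP synthase uses the proton gradient that builds up to make ATP. A few subunits are encoded in mitochondrial DNA, and all the others are made from nuclear genes. In skeletal muscle some complex IV subunits have a heart and muscle form beside a form found in most tissues.

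The nuclear genes of these complexes were found by gene name in the scanner files: names starting with UQCR, with COX4 to COX8, or with ATP5. The rule took 121 of 60305 probes and 38 of 45222 gene names, counting the older name COX6B with COX6B1. Each gene was read from its brightest kept probe. The names ATP5SL (now DMAC2, a complex I assembly factor) and COX4NB (now EMC8, a membrane protein complex subunit) fall under the rule without being subunits and are given apart. The other 36 are 8 genes of complex III, 13 of complex IV and 15 of ATP synthase. COX7A2L, a COX7A-related protein that binds complexes III and IV in supercomplexes, was counted with complex IV. No value was used for COX6A2, COX6B2 or COX8A, since no probe carries those names.

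Back muscle (longissimus dorsi) RNA was taken from growing castrated males, whose ages the labels do not give. They were of the Creole and Large White breeds or the F1 of these breeds. The comparison was between thermoneutral housing (TN, 24 °C) and heat stress (HS), with 6 arrays in each of the 6 groups except F1 HS, which has 5. The labels give 30 °C for HS whereas the growth protocol gives 32 °C for 5 days. The study's methods also give 32 °C, and why the labels differ is open. TN pigs were slaughtered before the challenge and HS pigs after it, so temperature cannot be told apart from day of slaughter, age and pen. The methods describe litters within each breed, which the labels do not give, so littermates were treated as independent animals. The muscle label was checked against 10 skeletal muscle genes, all of them measured and well above background on all 35 arrays, with mean log2 levels of 19.4 for ACTA1 (skeletal actin) and 19.3 for CKM (muscle creatine kinase).

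Levels are log2 of the quantile-normalised median pixel intensity, and every difference is a log2 difference. A gene was called when the limma test, adjusted by Benjamini-Hochberg over all 41517 kept probes, gave a p below 0.05. All 36 genes were well above background on all 35 arrays. The median change of all kept probes between HS and TN was -0.02. Levels of different probes were not compared with each other. In whole muscle, fewer cells of a type and less RNA per cell cannot be told apart.

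Some of the probes are shown here because their letters bear on how far a gene's value can be read. COX5B (a subunit on the matrix side of complex IV) has probes on opposite strands. Capitals mark a stretch of 56 bases in the first whose reverse complement stands in the second.
COX5B, first probe: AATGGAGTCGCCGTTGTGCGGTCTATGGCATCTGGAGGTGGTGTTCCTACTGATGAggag
COX5B, reverse probe: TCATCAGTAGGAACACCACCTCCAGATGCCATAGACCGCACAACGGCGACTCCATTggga
ATP5G1 and ATP5G2 encode the same mature subunit c of the membrane ring of ATP synthase. Their probes here differed at 18 of 55 aligned bases. Capitals mark the longest run they share, of 18 bases.
ATP5G1: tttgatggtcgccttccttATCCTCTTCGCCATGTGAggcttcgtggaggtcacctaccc
ATP5G2, second probe: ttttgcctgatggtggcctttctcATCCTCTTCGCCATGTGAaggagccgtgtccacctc
ATP5J2 (now ATP5MF, membrane subunit f) has a pair of probes to the same stretch, with capitals at the 5 of 57 aligned letters that differ.
ATP5J2, first of the pair: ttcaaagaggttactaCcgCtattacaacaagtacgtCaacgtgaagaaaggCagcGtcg
ATP5J2, other of the pair: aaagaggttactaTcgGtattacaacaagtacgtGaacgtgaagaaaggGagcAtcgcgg

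Most of the nuclear genes of the 3 complexes fell under heat stress. In the fit over all breeds, 22 of the 36 genes (61.1%) were lower in HS and 1 was higher. Over all kept probes 8.30% were called lower and 7.73% higher, 16.0% in all, and over the brightest probe of each gene name 7.85% were called lower. The median change over the 36 genes was -0.21, a decrease of 13.8% in intensity, and 33 of the 36 estimates were negative. By complex, 5 of 8 genes of complex III, 7 of 13 of complex IV and 10 of 15 of ATP synthase were lower, with median changes of -0.21, -0.21 and -0.22. The members that did not pass the test were nearly all on the same side, with COX6A1 and COX7A2 the exceptions.

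**Figure D1:**
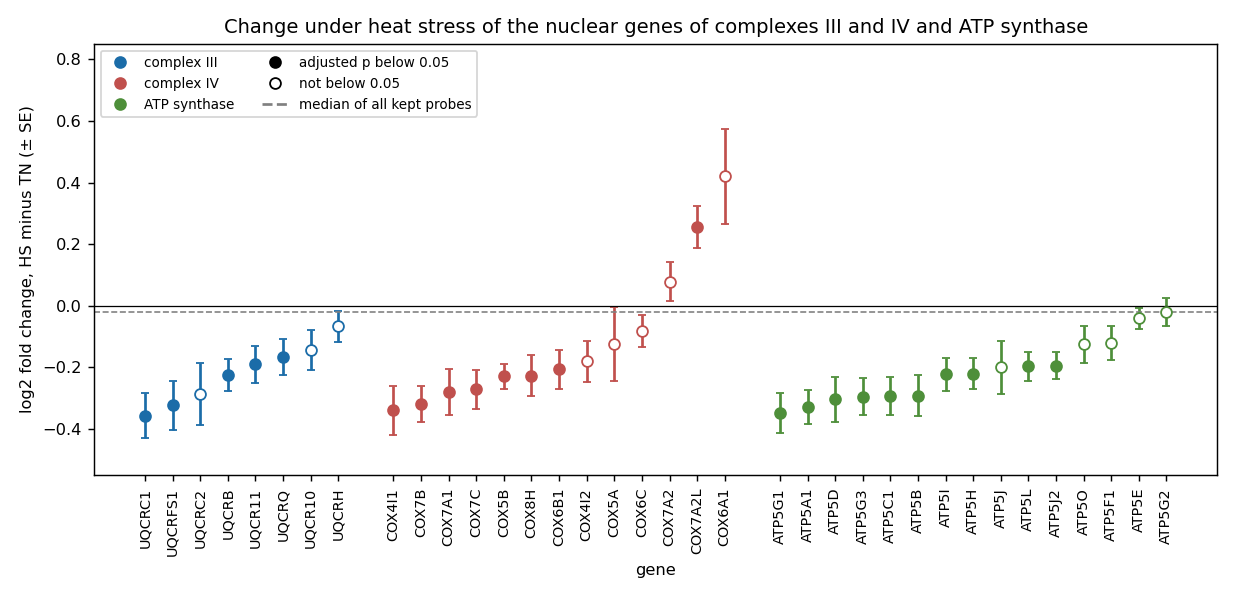
Change in log2 intensity from TN to HS (vertical axis, ± SE) of each nuclear gene of complex III, complex IV and ATP synthase (horizontal axis), with filled points for an adjusted p below 0.05 and a dashed line at the median of all kept probes. All 8 genes of complex III and all 15 of ATP synthase lie below 0, and 3 genes of complex IV lie above it.

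In complex III 2 of 3 core genes and 3 of 5 accessory genes were called lower. UQCRC1, a core protein on the matrix side, ranged on TN arrays from 15.07 to 16.15 (median 15.38) and on HS arrays from 14.74 to 15.34 (median 15.07). The ranges overlapped, and all 17 HS arrays lay below the TN mean of their breed. UQCRC1 fell by 0.36 (SE 0.07, limma adjusted p = 0.0016), and its other probe fell by 0.51 (adjusted p = 0.00061). The core protein UQCRC2 was at -0.29 by its brightest probe (adjusted p = 0.051) and fell by the same 0.29 by its other probe (adjusted p = 0.013).

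UQCRFS1, the Rieske iron-sulphur protein that takes the electrons from ubiquinol, ranged from 6.63 to 7.55 on TN arrays (median 6.97) and from 6.46 to 7.08 on HS arrays (median 6.68). It fell by 0.32 (SE 0.08, limma adjusted p = 0.0055), with 13 of 17 HS arrays below their breed's TN mean. With the leukocyte mean as a covariate the estimate was -0.12 (adjusted p = 0.31). Its value rests on 1 dim probe. As deposited, that probe's letters hold a stop codon in all 3 reading frames, against 2 of 3 for the reverse complement, and whether it reads the coding strand was not tested.

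The accessory subunits of complex III, small proteins around the core, had estimates between -0.22 and -0.07. UQCRB (the ubiquinone-binding subunit) had a median of 15.71 on TN arrays, with a range of 15.30 to 15.90, and of 15.48 on HS arrays, with a range of 15.12 to 15.70. It fell by 0.22 (SE 0.05, limma adjusted p = 0.0034). Of 7 further UQCRB probes, 5 were called lower. The call was lost with the leukocyte mean (-0.12), with array brightness (-0.16) and under spike-in scaling (-0.18). UQCR11 fell by 0.19 and UQCRQ by 0.17, the latter just inside the threshold (limma adjusted p = 0.046). UQCR10 was at -0.14 and UQCRH, the hinge protein beside cytochrome c1, at -0.07, and neither was called.

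CYC1, the nuclear gene of cytochrome c1 itself, lies outside the name rule and fell by 0.36 (SE 0.07, limma adjusted p = 0.00059). Of the assembly factors and partners of complex III, 2 of the 3 measured genes were called, CYC1 and the assembly factor BCS1L at -0.18. The share called lower over all kept probes was 8.30%. The electron carrier CYCS (cytochrome c) was at -0.16 with an SE of 0.13 and was not called.

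In complex IV, COX5B had the smallest adjusted p. Its levels ranged from 16.52 to 16.96 on TN arrays (median 16.74) and from 16.31 to 16.73 on HS arrays (median 16.53). All 17 HS arrays lay below the TN mean of their breed, although the ranges overlapped. COX5B fell by 0.23 (SE 0.04, limma adjusted p = 0.00045). The first of the COX5B probes printed above fell by 0.27 (adjusted p = 0.0027). The reverse probe fell by 0.31 (adjusted p = 0.0050), but it cannot read the same strand as the first. Which of them reads the COX5B transcript was not tested, and the reverse probe is not taken as further support.

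COX7B, a small membrane subunit, had a range of 14.64 to 15.31 on TN arrays (median 15.07) and of 14.31 to 15.02 on HS arrays (median 14.79). It fell by 0.32 (SE 0.06, limma adjusted p = 0.00052), with 16 of 17 HS arrays below their breed's TN mean. COX7C, another small membrane subunit, fell by 0.27 (SE 0.06, limma adjusted p = 0.0041), and both its other kept probes were called lower too. COX7C was not called with the leukocyte mean (-0.21) or under spike-in scaling (-0.22). Its TN arrays ranged from 15.98 to 16.58 (median 16.28) and its HS arrays from 15.64 to 16.47 (median 16.06). COX6B1, which faces the intermembrane space, fell by 0.21. COX6C was at -0.08 and COX5A, a matrix-side subunit, at -0.12, with none of the 5 COX6C probes called. COX5A was among the most variable members, with an SD of 0.39 on TN arrays, and 9 of 17 HS arrays lay below their breed's TN mean.

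COX7A1, the heart and muscle form of subunit 7A, ranged from 16.28 to 16.99 on TN arrays (median 16.74) and from 15.90 to 16.78 on HS arrays (median 16.43). It fell by 0.28 (SE 0.07, limma adjusted p = 0.011), and both its other probes were called lower. The COX7A1 call was lost with the leukocyte mean as a covariate (-0.09, adjusted p = 0.46), with array brightness (-0.14, adjusted p = 0.18) and under spike-in scaling (-0.23, adjusted p = 0.072). COX8H, the heart form of subunit 8, fell by 0.23 (SE 0.07, limma adjusted p = 0.019), from a TN median of 17.07 (range 16.60 to 17.41) to an HS median of 16.79 (range 16.25 to 17.24). The same fits gave COX8H -0.12, -0.09 and -0.17, none of them called.

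COX7A2, the form of subunit 7A found in most tissues, was at 0.08 (SE 0.06, limma adjusted p = 0.43). None of its 6 probes was called, and its sign turned under scaling to the 75th percentile, at -0.02. Over all the alternative fits the COX7A2 estimate ranged from -0.09 to 0.13. COX7A2L was the member that rose. Its TN arrays ranged from 10.98 to 11.68 (median 11.27) and its HS arrays from 11.29 to 11.91 (median 11.48). Each of the 17 HS arrays lay above the TN mean of its breed. It rose by 0.26 (SE 0.07, limma adjusted p = 0.012), and its other probe rose by 0.17 (adjusted p = 0.041). It was not called with the leukocyte mean (0.05, adjusted p = 0.61) or array brightness (0.18, adjusted p = 0.14) as a covariate.

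COX6A1, the form of subunit 6A found in most tissues, had the highest estimate of the 36 genes, 0.42 (SE 0.15), and missed the threshold (limma adjusted p = 0.058). TN arrays ranged from 12.86 to 14.47 (median 13.46) and HS arrays from 13.39 to 15.20 (median 13.90), with 14 of 17 HS arrays above their breed's TN mean. All 7 of its other probes were positive, between 0.08 and 0.45, and 3 of them were called. Over the alternative fits the COX6A1 estimate ranged from -0.08 to 0.49, so its sign was not kept throughout. Its spread was the widest of the 36, with an SD of 0.45 on TN arrays.

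The forms of subunit 4, the regulatory subunit of complex IV, lay on the same side. COX4I1, the form found in most tissues, fell by 0.34 (SE 0.08, limma adjusted p = 0.0045), from a TN median of 10.74 (range 10.29 to 11.07) to an HS median of 10.42 (range 9.84 to 10.84). It was at -0.16 with the leukocyte mean, -0.18 with array brightness and -0.18 under spike-in scaling, and was called in none of these. COX4I2, best known from lung, was at -0.18 (SE 0.07, adjusted p = 0.055). The differences between isoforms were not tested, since each isoform is read by its own probes.

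**Figure D2:**
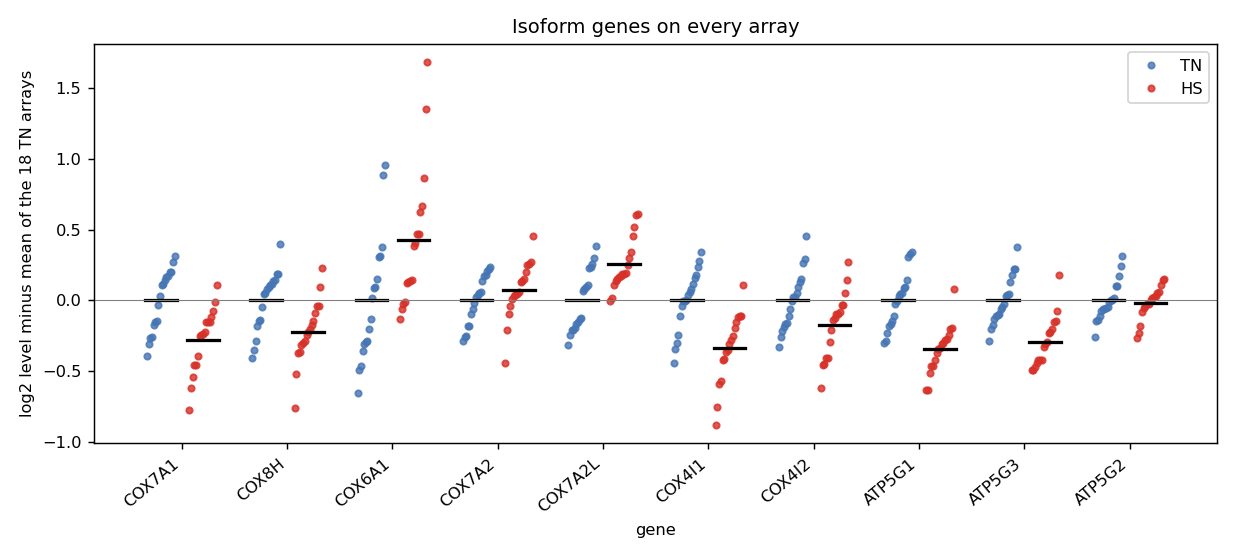
Log2 level of isoform genes of complex IV and of subunit c of ATP synthase on each array, minus the gene's mean over the 18 TN arrays (points sorted by value within a group, bars at the group mean, 18 TN and 17 HS arrays). COX7A1, COX8H, COX4I1, ATP5G1 and ATP5G3 are lower on HS arrays, ATP5G2 is level, and COX7A2L and COX6A1 are higher, with the TN and HS ranges overlapping for every gene shown.

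In ATP synthase 4 of 5 genes of the catalytic F1 head and its central stalk were called lower. ATP5A1 (now ATP5F1A, the alpha subunit) ranged from 15.93 to 16.72 on TN arrays (median 16.14) and from 15.67 to 16.10 on HS arrays (median 15.83). It fell by 0.33 (SE 0.06, limma adjusted p = 0.00023), and all 14 of its other probes were called lower, between -0.38 and -0.32. ATP5B, the catalytic beta subunit, fell by 0.29 and 8 of its 9 other probes were called, though it was not called with the leukocyte mean (-0.16) or array brightness (-0.18). The central stalk subunits ATP5C1 (gamma) and ATP5D (delta) fell by 0.29 and 0.30. ATP5E, the epsilon subunit of the same stalk, was at -0.04 (SE 0.03), and none of its 3 probes was called.

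Of the genes of the c ring, 2 of 3 were called lower, and differences between them were not tested. ATP5G1 fell by 0.35 (SE 0.06, limma adjusted p = 0.00056), from a TN median of 16.82 (range 16.50 to 17.14) to an HS median of 16.47 (range 16.17 to 16.88). ATP5G3 fell by 0.30 (SE 0.06, limma adjusted p = 0.0012), from a TN median of 16.06 (range 15.81 to 16.48) to an HS median of 15.79 (range 15.60 to 16.28). On 16 of 17 HS arrays each of these genes was below its breed's TN mean.

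ATP5G2 was at -0.02 (SE 0.05, adjusted p = 0.80), with a median of 16.46 on TN arrays (range 16.23 to 16.80) and 16.50 on HS arrays (range 16.22 to 16.64). Its second probe, printed above beside that of ATP5G1, was also at -0.02 (SE 0.04). ATP5G2 and ATP5E were called under none of 16 other fits, and their estimates turned to 0.03 and 0.00 under spike-in scaling and to -0.12 and -0.15 under 75th percentile scaling.

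Of the peripheral stalk, which holds the head still, 1 of 4 genes was called. ATP5H (subunit d) fell by 0.22, while ATP5F1 (subunit b) was at -0.12, ATP5J (F6) at -0.20 and ATP5O (the oligomycin sensitivity protein) at -0.13. All 13 kept probes of ATP5F1 were negative and 1 of them was called. The genes of the small membrane subunits e, f and g, which join ATP synthase into dimers, were all called. ATP5I (now ATP5ME, subunit e) fell by 0.22 (SE 0.05, limma adjusted p = 0.0055) and ATP5J2 by 0.19 (SE 0.04, limma adjusted p = 0.0033). Neither was called with the leukocyte mean, with array brightness or under spike-in scaling, where ATP5I lay between -0.17 and -0.15 and ATP5J2 between -0.15 and -0.13.

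ATP5I ranged from 16.30 to 16.75 on TN arrays and from 15.89 to 16.62 on HS arrays, and ATP5J2 from 15.87 to 16.38 and from 15.72 to 16.06. ATP5L (subunit g) fell by 0.20 by its brightest probe and was at -0.10 by its other one, which was not called. Of the ATP5J2 pair printed above, the first fell by 0.18 (SE 0.05, adjusted p = 0.016) and the other was at -0.22 with an SE of 0.33 (adjusted p = 0.69). The inhibitor of ATP synthase, ATPIF1, fell by 0.18 (adjusted p = 0.0079). It was the 1 gene called of 5 measured assembly and regulation genes, against 8.30% of all kept probes called lower. Of the names that are not subunits, ATP5SL fell by 0.20 (adjusted p = 0.0045) and COX4NB was at -0.14 (adjusted p = 0.10).

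The 36 genes had 118 kept probes, of which 67 were called lower and 5 higher, the latter all in COX6A1 and COX7A2L. All 22 genes with several kept probes had the same sign on every one. Probes of a gene are no independent replicates, since they are meant to read the same RNA and some of them overlap. The COX5B probes on opposite strands cannot both read the same strand, and the counts above include both.

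The complexes were also compared as a mean over their genes, each gene centred on all 35 arrays. For complex III the array means ranged from -0.15 to 0.27 at TN (median 0.13) and from -0.42 to 0.11 at HS (median -0.10). For complex IV they ranged from -0.06 to 0.23 (median 0.05) and from -0.21 to 0.14 (median -0.06). For ATP synthase they ranged from -0.13 to 0.29 (median 0.11) and from -0.31 to 0.10 (median -0.10). The TN and HS ranges overlapped in every complex. Still, all 17 HS arrays were below the TN mean of their breed in complex III and in ATP synthase, and 15 of 17 in complex IV. Creole HS replicate 2 and F1 HS replicate 1 were the arrays above it in complex IV. The arrays lay on 5 slides, of which 4 held all 6 groups. Within slides 1 to 4 the median change was -0.28, -0.020, -0.38 and -0.22 for complex III, -0.14, -0.090, -0.13 and -0.10 for complex IV, and -0.26, -0.088, -0.33 and -0.19 for ATP synthase. With slide as a fixed block 27 of the 36 genes were called, 25 of them lower, while the calls over all kept probes also rose, to 20.1% in all and 11.0% lower.

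**Figure D3:**
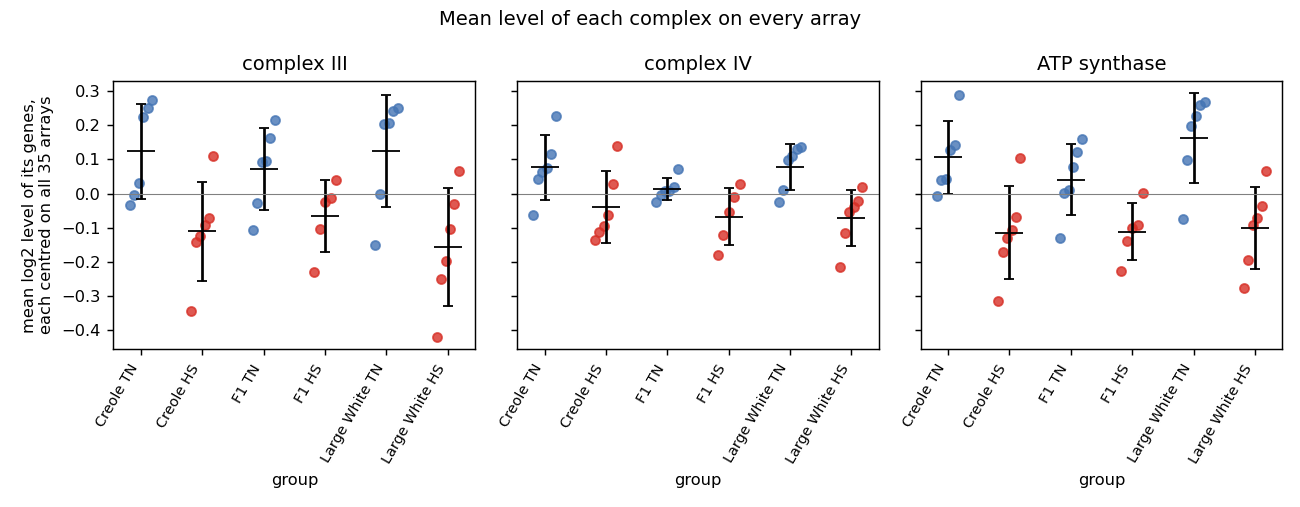
Mean log2 level of the genes of complex III (8 genes), complex IV (13) and ATP synthase (15) on each array, with each gene centred on all 35 arrays, by breed and temperature (blue TN, red HS, black bars mean ± SD, n = 6 and 5 for F1 HS). In every breed and complex the HS mean lies below the TN mean and the points overlap.

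Most estimates were negative in each breed, while few genes were called within a breed. Within Creole pigs 3 of 36 genes were called, against 1.91% of all kept probes, and all 3 were lower, against 0.874%. UQCRFS1 fell by 0.53 (SE 0.13, limma adjusted p = 0.031), from 7.15 ± 0.24 (SD, n = 6) to 6.61 ± 0.19 (n = 6). COX7C fell by 0.42 (SE 0.11, adjusted p = 0.039), from 16.44 ± 0.15 to 16.02 ± 0.27. ATP5A1 fell by 0.35 (SE 0.09, adjusted p = 0.042), from 16.19 ± 0.16 to 15.84 ± 0.12. No gene was called when Creole TN replicate 1 or 6 or Creole HS replicate 1, 3, 5 or 6 was left out, and 8 were called without Creole HS replicate 2. How many of all kept probes were called without these arrays is not given here. With slide as a fixed block all 3 Creole calls were lost, at adjusted p = 0.056 for UQCRFS1, 0.063 for COX7C and 0.077 for ATP5A1.

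Within Large White pigs limma called none of the 36, against 0.00482% of all kept probes, and 23 had an unadjusted p below 0.05. The lowest adjusted p was 0.056, shared by UQCRC1 at -0.58, COX7B at -0.46 and ATP5A1 at -0.44. Leaving out Large White TN replicate 6 raised the count to 11, and slide as a fixed block raised it to 6. The share of all kept probes called in these fits is not given here, so the counts are not read as particular to these genes. Within F1 pigs none was called, again against 0.00482%, and 4 had an unadjusted p below 0.05.

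By group, levels are given as mean ± SD over 6 arrays, or 5 for F1 HS. UQCRC1 was at 15.39 ± 0.16 at TN and 15.11 ± 0.14 at HS in Creole pigs, 15.30 ± 0.15 and 15.10 ± 0.15 in F1 pigs, and 15.58 ± 0.32 and 14.99 ± 0.25 in Large White pigs. For UQCRB the means were 15.70 ± 0.10 at TN and 15.45 ± 0.12 at HS in Creole pigs, 15.65 ± 0.18 and 15.52 ± 0.10 in F1 pigs, and 15.75 ± 0.13 and 15.47 ± 0.19 in Large White pigs. Both genes had a lower mean at HS in every breed, with the smallest difference in F1 pigs for each. COX5B was at 16.71 ± 0.13 at TN and 16.50 ± 0.11 at HS in Creole pigs, 16.74 ± 0.09 and 16.54 ± 0.07 in F1 pigs, and 16.86 ± 0.12 and 16.58 ± 0.11 in Large White pigs. COX7B stood at 15.06 ± 0.07 at TN and 14.74 ± 0.23 at HS in Creole pigs, 14.97 ± 0.16 and 14.81 ± 0.13 in F1 pigs, and 15.14 ± 0.15 and 14.68 ± 0.17 in Large White pigs. Both subunits of complex IV had a lower mean at HS in every breed too. ATP5G1 was at 16.82 ± 0.23 at TN and 16.46 ± 0.15 at HS in Creole pigs, 16.75 ± 0.13 and 16.41 ± 0.17 in F1 pigs, and 16.84 ± 0.25 and 16.49 ± 0.21 in Large White pigs. ATP5G3 had means of 16.09 ± 0.23 at TN and 15.87 ± 0.23 at HS in Creole pigs, 16.02 ± 0.11 and 15.72 ± 0.12 in F1 pigs, and 16.18 ± 0.14 and 15.82 ± 0.16 in Large White pigs. The ATP5G1 estimates in the 3 breeds were -0.36, -0.34 and -0.35.

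Of the genes with positive estimates, COX7A2L was at 11.33 ± 0.24 at TN and 11.63 ± 0.19 at HS in Creole pigs, 11.27 ± 0.19 and 11.48 ± 0.17 in F1 pigs, and 11.29 ± 0.25 and 11.54 ± 0.20 in Large White pigs. COX6A1 had means of 13.34 ± 0.43 at TN and 13.97 ± 0.59 at HS in Creole pigs, 13.53 ± 0.49 and 13.73 ± 0.25 in F1 pigs, and 13.67 ± 0.44 and 14.08 ± 0.58 in Large White pigs. Both had a higher mean at HS in every breed, and the SD of COX6A1 was wide in most groups. COX7A2 was at 13.97 ± 0.22 at TN and 14.14 ± 0.10 at HS in Creole pigs, 14.06 ± 0.12 and 14.09 ± 0.11 in F1 pigs, and 13.92 ± 0.18 and 13.94 ± 0.30 in Large White pigs. ATP5G2 stood at 16.44 ± 0.05 at TN and 16.53 ± 0.07 at HS in Creole pigs, 16.40 ± 0.12 and 16.44 ± 0.08 in F1 pigs, and 16.63 ± 0.13 and 16.44 ± 0.17 in Large White pigs. The HS mean of ATP5G2 was below its TN mean in Large White pigs and above it in the other breeds. Of the muscle forms, COX7A1 was at 16.60 ± 0.18 at TN and 16.31 ± 0.27 at HS in Creole pigs, 16.66 ± 0.22 and 16.41 ± 0.16 in F1 pigs, and 16.75 ± 0.26 and 16.46 ± 0.25 in Large White pigs. COX8H had means of 17.16 ± 0.12 at TN and 16.90 ± 0.25 at HS in Creole pigs, 16.81 ± 0.11 and 16.75 ± 0.17 in F1 pigs, and 17.04 ± 0.22 and 16.70 ± 0.24 in Large White pigs. In both of these genes the HS mean lay below the TN mean in each breed. COX4I1 was at 10.81 ± 0.18 at TN and 10.39 ± 0.20 at HS in Creole pigs, 10.66 ± 0.20 and 10.42 ± 0.33 in F1 pigs, and 10.71 ± 0.27 and 10.36 ± 0.27 in Large White pigs. COX4I2 stood at 9.74 ± 0.16 at TN and 9.59 ± 0.28 at HS in Creole pigs, 9.71 ± 0.17 and 9.53 ± 0.24 in F1 pigs, and 9.996 ± 0.19 and 9.79 ± 0.11 in Large White pigs. For COX4I2 the Large White means were the highest of the breeds at either temperature.

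The median change over the 36 genes was -0.22 in Creole, -0.14 in F1 and -0.25 in Large White pigs, and 31 of the 36 estimates were negative in all 3 breeds. COX6A1, COX7A2 and COX7A2L were positive in all 3. ATP5G2 was at 0.08 in Creole, 0.04 in F1 and -0.19 in Large White pigs. The test of whether the breeds differed in their response called none of the 36 genes and 0% of all kept probes (lowest adjusted p = 0.96). Without adjustment ATP5G2 alone of the 36 genes fell below the 0.05 threshold in that limma F-test.

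**Figure D4:**
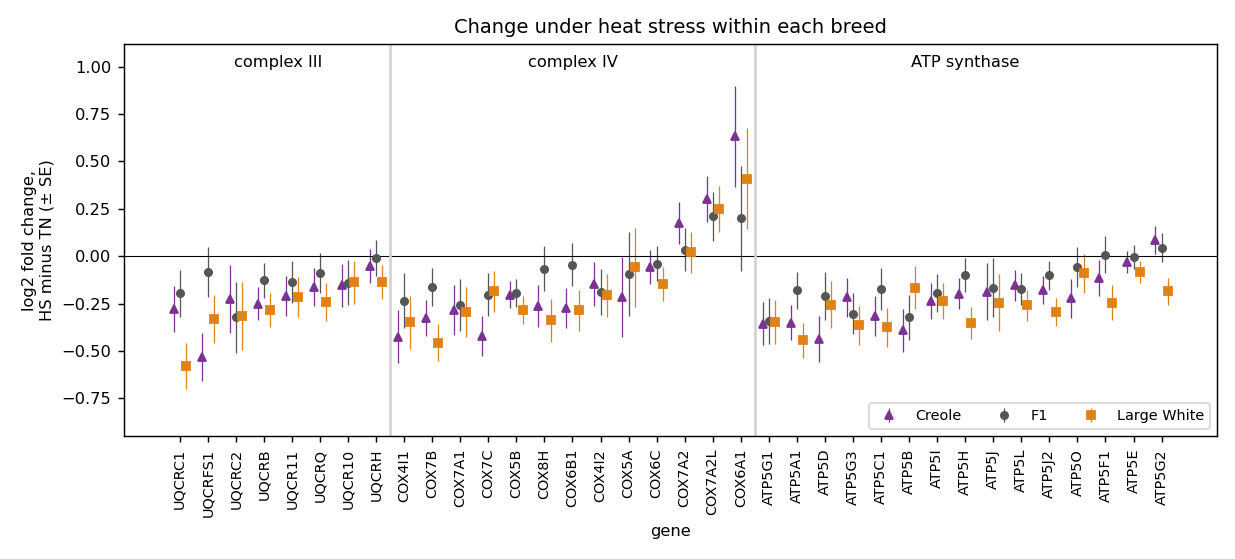
Log2 change from TN to HS (± SE) of each of the 36 genes within Creole (triangles), F1 (circles) and Large White pigs (squares). Most points lie below 0 in all 3 breeds, COX7A2, COX7A2L and COX6A1 lie above it, and no gene passed the test of a difference between breeds.

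Breed itself was not called for any of the 36 genes by limma. Between Creole and Large White pigs 3.64% of all kept probes were called, between F1 and Large White 0.525%, between F1 and Creole 0.477%, and between F1 and the midpoint of its parents 0.246%. In these contrasts 4, 4, 1 and 3 of the 36 genes had an unadjusted p below 0.05. COX4I2 was lower by estimate in Creole than in Large White pigs, at -0.22 (SE 0.08, adjusted p = 0.12), and in F1 than in Large White pigs, at -0.27 (SE 0.08, adjusted p = 0.14). COX5A was at 0.38 (SE 0.14, adjusted p = 0.15) in Creole against Large White pigs, and COX8H at -0.26 (SE 0.08, adjusted p = 0.19) in F1 against Creole pigs.

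The rest of the respiratory chain was read from lists chosen with earlier results of these data known. Over all kept probes 8.30% were called lower and 7.73% higher. Of complex I, 20 of 33 measured genes were lower and none higher, with a median change of -0.21. NDUFS1, which carries iron-sulphur clusters, was at -0.37 and NDUFC1 at -0.33. Of complex II, SDHA (-0.26) and SDHB (-0.29) were lower and SDHD was at -0.06. Of the TCA cycle, 9 of 12 genes were lower (median -0.23), among them the citrate synthase gene CS at -0.23 (SE 0.06) and IDH3A at -0.45. Among the complex IV assembly genes and partners, 3 of 10 were lower, with NDUFA4, a subunit of complex IV that was long assigned to complex I, at -0.35. Of the genes for mitochondrial content and biogenesis, 4 of 10 were lower, with TFAM, which packs and transcribes mitochondrial DNA, at -0.21.

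The subunits encoded in mitochondrial DNA were read less firmly. Of 13 such genes 3 were called lower (ATP8, ND4 and ND4L), against 8.30% of all kept probes, and the median change was -0.10. ATP8, a subunit of ATP synthase, was at -0.30 (SE 0.09, limma adjusted p = 0.019). COX1, COX2 and COX3 of complex IV, CYTB of complex III and ATP6 of ATP synthase lay between -0.03 and 0.02, and none was called. Their probes were among the brightest, with mean levels of 18.6 to 19.1. Scaled to the 75th percentile, without quantile normalisation, they lay between -0.24 and -0.20 and COX1, COX2 and ATP6 were called lower. Median scaling put them between -0.16 and -0.12 and spike-in scaling between -0.08 and -0.05, and neither called any of them. The 75th percentile scaling moved the median of the 36 nuclear genes to -0.32 and that of all kept probes to -0.08.

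Other tissue markers moved with temperature in the same arrays. The counts below stand against 8.30% of all kept probes called lower and 7.73% called higher, and no list was tested as a set. Of the leukocyte list 8 of 15 measured genes were called higher and none lower, and the mean of the list ranged from -1.80 to 0.79 on TN arrays and from -0.39 to 1.18 on HS arrays. Of the connective tissue list 6 of 15 were higher, with a range of the list mean from -1.27 to 0.26 at TN and -0.30 to 0.59 at HS. Of the fast fibre list 4 of 12 genes were lower, of the slow fibre list 1 of 10 was lower and 1 higher, and of the skeletal muscle list 1 of 10 was lower and 1 higher. In these lists 10, 8 and 9 estimates were negative, with median changes of -0.14, -0.13 and -0.16. The mean of the skeletal muscle list ranged from -0.18 to 0.33 on TN arrays and from -0.48 to 0.11 on HS arrays. It was not used as a covariate. Of the endothelial list 2 of 8 genes were lower, of the blood cell list 2 of 4 were lower, of the nerve list 2 of 8 were higher, and of the adipocyte list none of 7 was called. The log2 75th percentile of array intensity was 9.05 ± 0.17 (SD, n = 18) at TN and 9.24 ± 0.24 (n = 17) at HS.

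With the leukocyte mean as a covariate, 6 of the 36 genes were called lower and none higher, and the median change was -0.12. With array brightness as a covariate 8 were called lower, and the median was -0.14. These fits called 5.15% and 5.04% of all kept probes, and 2.4% and 1.83% lower. Under spike-in scaling 8 genes were lower and 1 higher, with a median of -0.17 against 0.07 for all kept probes, of which 11.3% were called and 1.51% lower. UQCRC1, COX5B, COX7B, ATP5A1, ATP5G1 and ATP5G3 were called in all 16 other fits. With the slow fibre mean as a covariate 23 genes were lower and 2 higher, against 17.7% of all kept probes called and 9.19% lower. What part these measures have in the change was not tested beyond these fits.

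**Figure D5:**
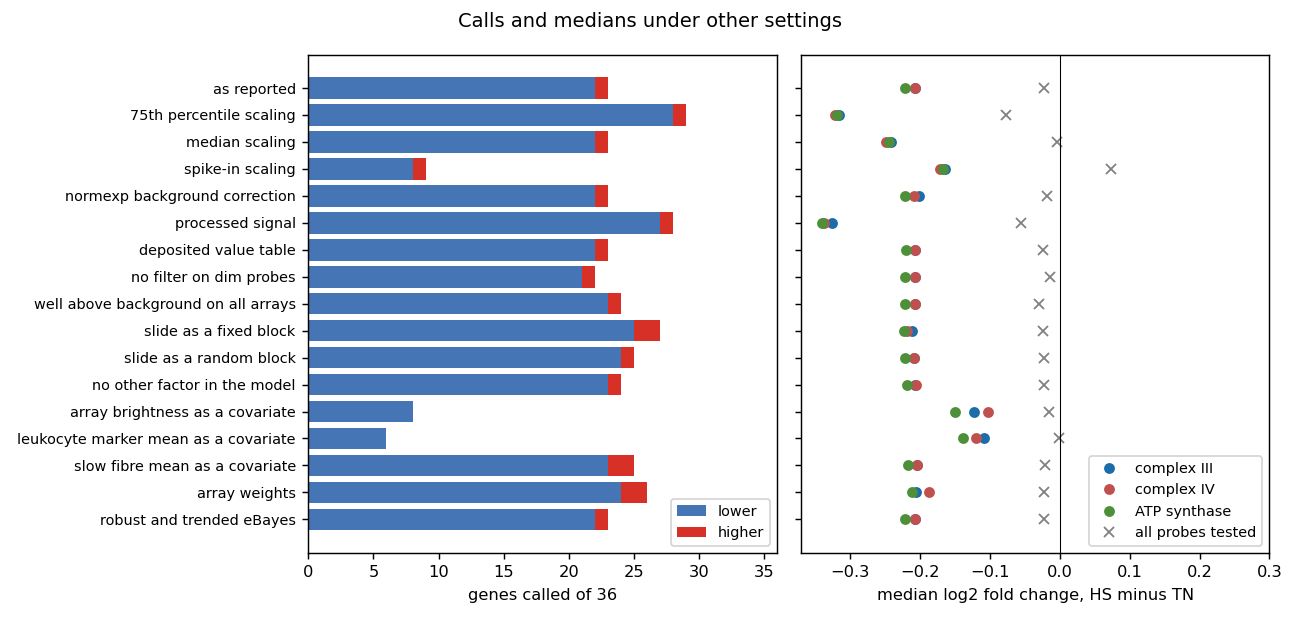
Number of the 36 genes called lower or higher between TN and HS (left) and median log2 change of each complex and of all probes tested (right) as reported and under 16 other fits. The medians of the 3 complexes stay below 0 and below that of all probes in every fit, while the calls drop to 6 with the leukocyte mean, 8 with array brightness and 9 under spike-in scaling.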

How the data were processed

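Muscle RNA of 35 pigs was hybridised on 1-colour Agilent 60K porcine arrays, read with Feature Extraction 10.10.1.1 per the labels. The deposited scanner files hold several signals per spot, of which the median pixel intensity was used, without background subtraction. The deposited table of 40649 probes holds the authors' normalised log2 values and was used as an alternative, since all 35 columns matched the array they are named for best (lowest r 0.99998).

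Here control spots and 105 spots flagged as outliers were left out, no spot was saturated, and log2 intensities were quantile-normalised. A probe was kept if, in some group, 75% or more of the arrays had it well above background, which left 41517 of 60305. Groups came from the labels. limma 3.58.1 in R 4.3.3 fitted breed plus temperature, or the 6 group means for single-breed changes and the interaction test, with Benjamini-Hochberg adjustment over all kept probes at 0.05. Tests were two-sided. Pen, slaughter batch, father and mother, random terms of the study's model, could not be fitted because the labels lack them. The fit was tested on simulated data.

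Gene names are those of the array design, matched without regard to case, and each gene was read from its brightest kept probe. Genes described in full are the 3 called genes with the smallest adjusted p in each complex, those that moved against their complex, those called within a breed, the isoform sets, and ATP5I and ATP5J2, which the study's text names. The members, the gene lists and the rule were chosen with earlier results of these data known. Alternatives were other scalings, background corrections, filters, slide blocks, covariates, array weights, other probes and leaving out each array. The number of arrays limits the precision. No genome coordinates were used here.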

Additional observations from a re-analysis of the deposited data

Results flagged for a closer look

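Within the groups of 5 or 6 arrays, 17 of 234 group and measure combinations held 1 array far from the others, where chance gives about 1 in 20. The value given is the gap to the nearest array over the range of the group. F1 TN replicate 2 was the lowest of its group for UQCRB (0.691), COX6C (0.652), COX7B (0.772) and ATP5E (0.684). Large White TN replicate 6 was the lowest for UQCR11 (0.638), COX8H (0.756) and ATP5H (0.698). Creole HS replicate 1 was the lowest for UQCRH (0.716), ATP5G1 (0.666) and ATP5F1 (0.678).

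Large White HS replicate 5 was the highest for COX6A1 (0.655) and the lowest for ATP5H (0.681). Creole HS replicate 2 was the highest for ATP5H (0.820). In the Creole TN group replicate 3 was the lowest for COX6C (0.642), replicate 5 the lowest for COX7C (0.726) and replicate 4 the highest for COX8H (0.791). F1 TN replicate 6 was the lowest for UQCRC2 (0.657). No gene had all arrays of one breed on the opposite side from all those of another.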

How the results depend on the processing

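The count of genes called between HS and TN, 23 of 36, fell to 9 under spike-in scaling and, with a covariate, to 8 for array brightness and 6 for leukocyte markers, and was 14 of 22 genes by the second brightest probe and 12 of 20 by names through accessions. In the last 2 of these fewer genes were tested. For the others the cause was not tested. Leaving out 1 array gave 21 to 27. Called genes kept their sign under every alternative.

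Within Creole pigs the count of 3 became 0 under spike-in scaling, with slide as a fixed block, with brightness or the leukocyte mean, and by the second probe, 5 with array weights and 12 with the slow fibre mean, and leaving out 1 array gave 0 to 8. Within Large White pigs the count of 0 became 1 with normexp, 2 with the processed signal, 3 under 75th percentile scaling or slide as a random block, 6 with slide as a fixed block and 7 with array weights, and leaving out 1 array gave 0 to 11. COX4I2 was called between Creole and Large White pigs under median scaling and with brightness (1 gene each). Between F1 and Large White pigs 1 gene was called under median scaling and 2 under spike-in scaling and with brightness. COX8H was the 1 gene called between F1 and Creole pigs with brightness, the slow fibre mean or array weights, and against the midpoint with brightness. Leaving out Creole HS replicate 2 gave 1 gene between Creole and Large White pigs. Calls over all kept probes in these within-breed and between-breed fits are not given here, so the counts are not read as particular to these genes.

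The median change of complex III was -0.020 within slide 2 and -0.38 within slide 3. That of complex IV was -0.32 under 75th percentile scaling, -0.34 with the processed signal, -0.10 with brightness, -0.12 with the leukocyte mean, and -0.090 and -0.10 within slides 2 and 4. That of ATP synthase was -0.34 with the processed signal and -0.088 within slide 2. Leaving out 1 array gave -0.23 to -0.18 for complexes III and IV and -0.24 to -0.20 for ATP synthase. No analysis within litters was possible because the labels do not give the litters. The labels give no replicate numbers either, and those used here follow accession order.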
